A study of Mus musculus with 9 samples.

Results

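Circular RNAs (circRNAs) from 4 genome windows, named after the ubiquitin pathway genes Cyld, Usp34, Usp32 and Trim37, were followed in mouse liver under a high fat diet and metformin. A circRNA was counted as a member if its array probe was named by position and lay wholly within mm9 chr8:91218000-91277000 (Cyld), chr11:23200000-23400000 (Usp34), chr11:84800000-84955000 (Usp32) or chr11:86940000-87040000 (Trim37). This rule gave 77 circRNAs of the 30534 on the array, 14043 of which were named by position: 6 in the Cyld window, 35 in the Usp34 window, 18 in the Usp32 window and 18 in the Trim37 window. The windows were chosen by gene with results of these arrays already known, so differences between groups are given as descriptions of these circles. No host gene is attached to a probe in the sources used here, and the window names stand for the places only.

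All mice were male wild-type C57BL/6J animals, 20 weeks old, and each array carried liver RNA pooled from 4 mice of a group. Metformin mice ate a high fat diet (45% of energy from fat) for 17 weeks and were given 3 mg of metformin per kg per day by gavage during the last 5 weeks. High fat diet mice ate the same diet for 17 weeks and received saline by gavage during the last 5 weeks. Control mice ate chow for 17 weeks, with no gavage listed, so that diet and gavage cannot be told apart in comparisons with control. There were 3 arrays per group, and the RNA of all groups was digested with RNase R, an exonuclease that removes linear RNA and spares circles. Pools leave out part of the spread between single mice. In whole liver, fewer cells of a type and less RNA per cell cannot be told apart.

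Ubiquitin is a small protein attached to other proteins by ligases and taken off by deubiquitinases, and the chains it forms send proteins to the proteasome or change their signalling. Cyld, Usp34 and Usp32 encode deubiquitinases, and Trim37 encodes a RING-type ubiquitin ligase. CYLD is known as a brake on NF-kappaB signalling, which takes part in liver inflammation. A circRNA forms when a splice donor is joined back to an acceptor upstream of it, so that several circles can come from 1 gene and share an exon boundary.

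The circles of a gene are cut from transcripts that start at its promoters, and the 250 bases before the annotated start of each gene are shown here as the regulatory sequence of the gene each window is named after. They are not transcribed from that start and are no part of a circle. They were taken from RefSeq (GRCm38.p6) at chr8:88696778-88697027 (Cyld, plus strand), chr11:23306645-23306894 (Usp34, plus strand), chr11:85139956-85140205 (Usp32, minus strand) and chr11:87126825-87127074 (Trim37, plus strand), and all 4 genes were matched by symbol. The windows and circles are given in mm9, another genome build, so these coordinates cannot be set beside theirs. Capitals mark matches to CCAAT (the CCAAT box), GGGCGG (the GC box), CACGTG (the E-box) or TATAAA (the TATA box) on either strand, with overlapping matches counted separately.
Cyld: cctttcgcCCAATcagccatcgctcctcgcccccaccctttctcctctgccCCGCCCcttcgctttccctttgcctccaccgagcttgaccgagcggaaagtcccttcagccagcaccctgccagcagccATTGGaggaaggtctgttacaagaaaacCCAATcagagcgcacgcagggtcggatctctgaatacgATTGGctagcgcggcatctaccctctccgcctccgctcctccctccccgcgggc
Usp34: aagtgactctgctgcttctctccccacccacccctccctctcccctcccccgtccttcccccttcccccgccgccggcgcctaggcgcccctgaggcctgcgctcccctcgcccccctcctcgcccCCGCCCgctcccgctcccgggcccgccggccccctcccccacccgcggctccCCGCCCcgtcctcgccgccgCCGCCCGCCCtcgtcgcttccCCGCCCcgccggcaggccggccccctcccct
Usp32: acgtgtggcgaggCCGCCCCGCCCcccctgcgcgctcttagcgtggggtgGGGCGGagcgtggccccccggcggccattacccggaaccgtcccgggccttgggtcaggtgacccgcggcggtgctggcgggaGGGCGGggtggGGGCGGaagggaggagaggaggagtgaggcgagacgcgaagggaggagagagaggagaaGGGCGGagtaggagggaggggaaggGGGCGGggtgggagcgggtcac
Trim37: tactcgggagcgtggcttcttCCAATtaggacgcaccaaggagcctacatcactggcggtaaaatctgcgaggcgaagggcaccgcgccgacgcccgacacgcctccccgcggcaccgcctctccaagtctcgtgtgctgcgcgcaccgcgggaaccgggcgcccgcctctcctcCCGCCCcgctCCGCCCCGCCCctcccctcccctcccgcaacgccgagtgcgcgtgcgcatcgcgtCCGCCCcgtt
The Cyld stretch held 4 CCAAT matches and 1 GC box match, and the Trim37 stretch held 1 and 4. The Usp34 stretch held 0 CCAAT and 5 GC box matches, and the Usp32 stretch held 0 and 7. None of the 4 held CACGTG or TATAAA. Of 32851 promoters of the same length, 33.8% held a CCAAT match, 32.7% a GC box match, 6.02% an E-box match and 12.4% a TATA box match. The stretches were 62.8% (Cyld), 82.0% (Usp34), 75.2% (Usp32) and 72.0% (Trim37) G or C, against a median of 52.4% over all promoters. These are matches of letters and no measure of factor binding.

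Levels are log2 processed intensity minus the array's 75th percentile, so that 0 is the brightness which 75% of probes stay at or below. They were compared between groups within a probe. The brightness of different probes depends on their sequence, so it does not rank amounts of circles. The share of probes well above background was 69.4% to 83.9% on metformin arrays, 71.8% to 82.4% on high fat diet arrays and 80.1% to 84.3% on control arrays. Of the 77 circRNAs, 66 to 76 were well above background on metformin arrays, 72 to 76 on high fat diet arrays and 74 to 77 on control arrays. Metformin replicate 3 had the lowest count, and it was also the 1 array on a second slide with its own scan. On slide 1, the first column of arrays held high fat diet replicate 1 and the 3 controls, and the second column held metformin replicates 1 and 2 and high fat diet replicates 2 and 3. Each circRNA probe had a partner probe of the same name ending in _neg. The target of the partner is unstated in the labels, and its values are given as a paired reading.

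The circles were laid out as nested and overlapping families. From the first to the last back-splice end, those of the Usp34 window covered 131.4 kb, those of the Trim37 window 80.7 kb, those of the Usp32 window 75.4 kb and those of the Cyld window 29.5 kb. No position-named circRNA crossed a window edge, and the nearest outside neighbour lay 18.8 kb away, above the Trim37 circles. Up to 8 circles of the Usp32 window covered the same point, with up to 7 in the Usp34 window and up to 6 in the Trim37 and Cyld windows. The span, the genomic distance between the ends with introns included, ranged from 110 bases (Trim37, chr11:87029939-87030049) to 29926 bases (Trim37, chr11:86951092-86981018), with a median of 7691 bases against 8108 over the 14043 circRNAs named by position.

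Shared ends were common. Of the 77 circles, 65 (84.4%) had at least 1 end in common with another circRNA named by position, against 46.8% of all those so named. Both ends were shared with others by 27 (35.1%), against 8.16%. CircRNAs without a position in their name were not compared. All 6 Cyld circles shared an end, as did 28 of 35 in the Usp34 window, 16 of 18 in the Usp32 window and 15 of 18 in the Trim37 window. In the Cyld window 3 circles began at 91229125, with spans of 653, 4770 and 26590 bases. In the Usp32 window 4 circles met at 84856182 and 3 at 84853672. In the Trim37 window 3 circles began at 86958966 and 3 ended at 87000017. In the Usp34 window 6 positions were each used by 3 circles. Windows dense in circles have more chances of a common end, and circles that share an end are not independent readings of a locus.

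**Figure D1:**
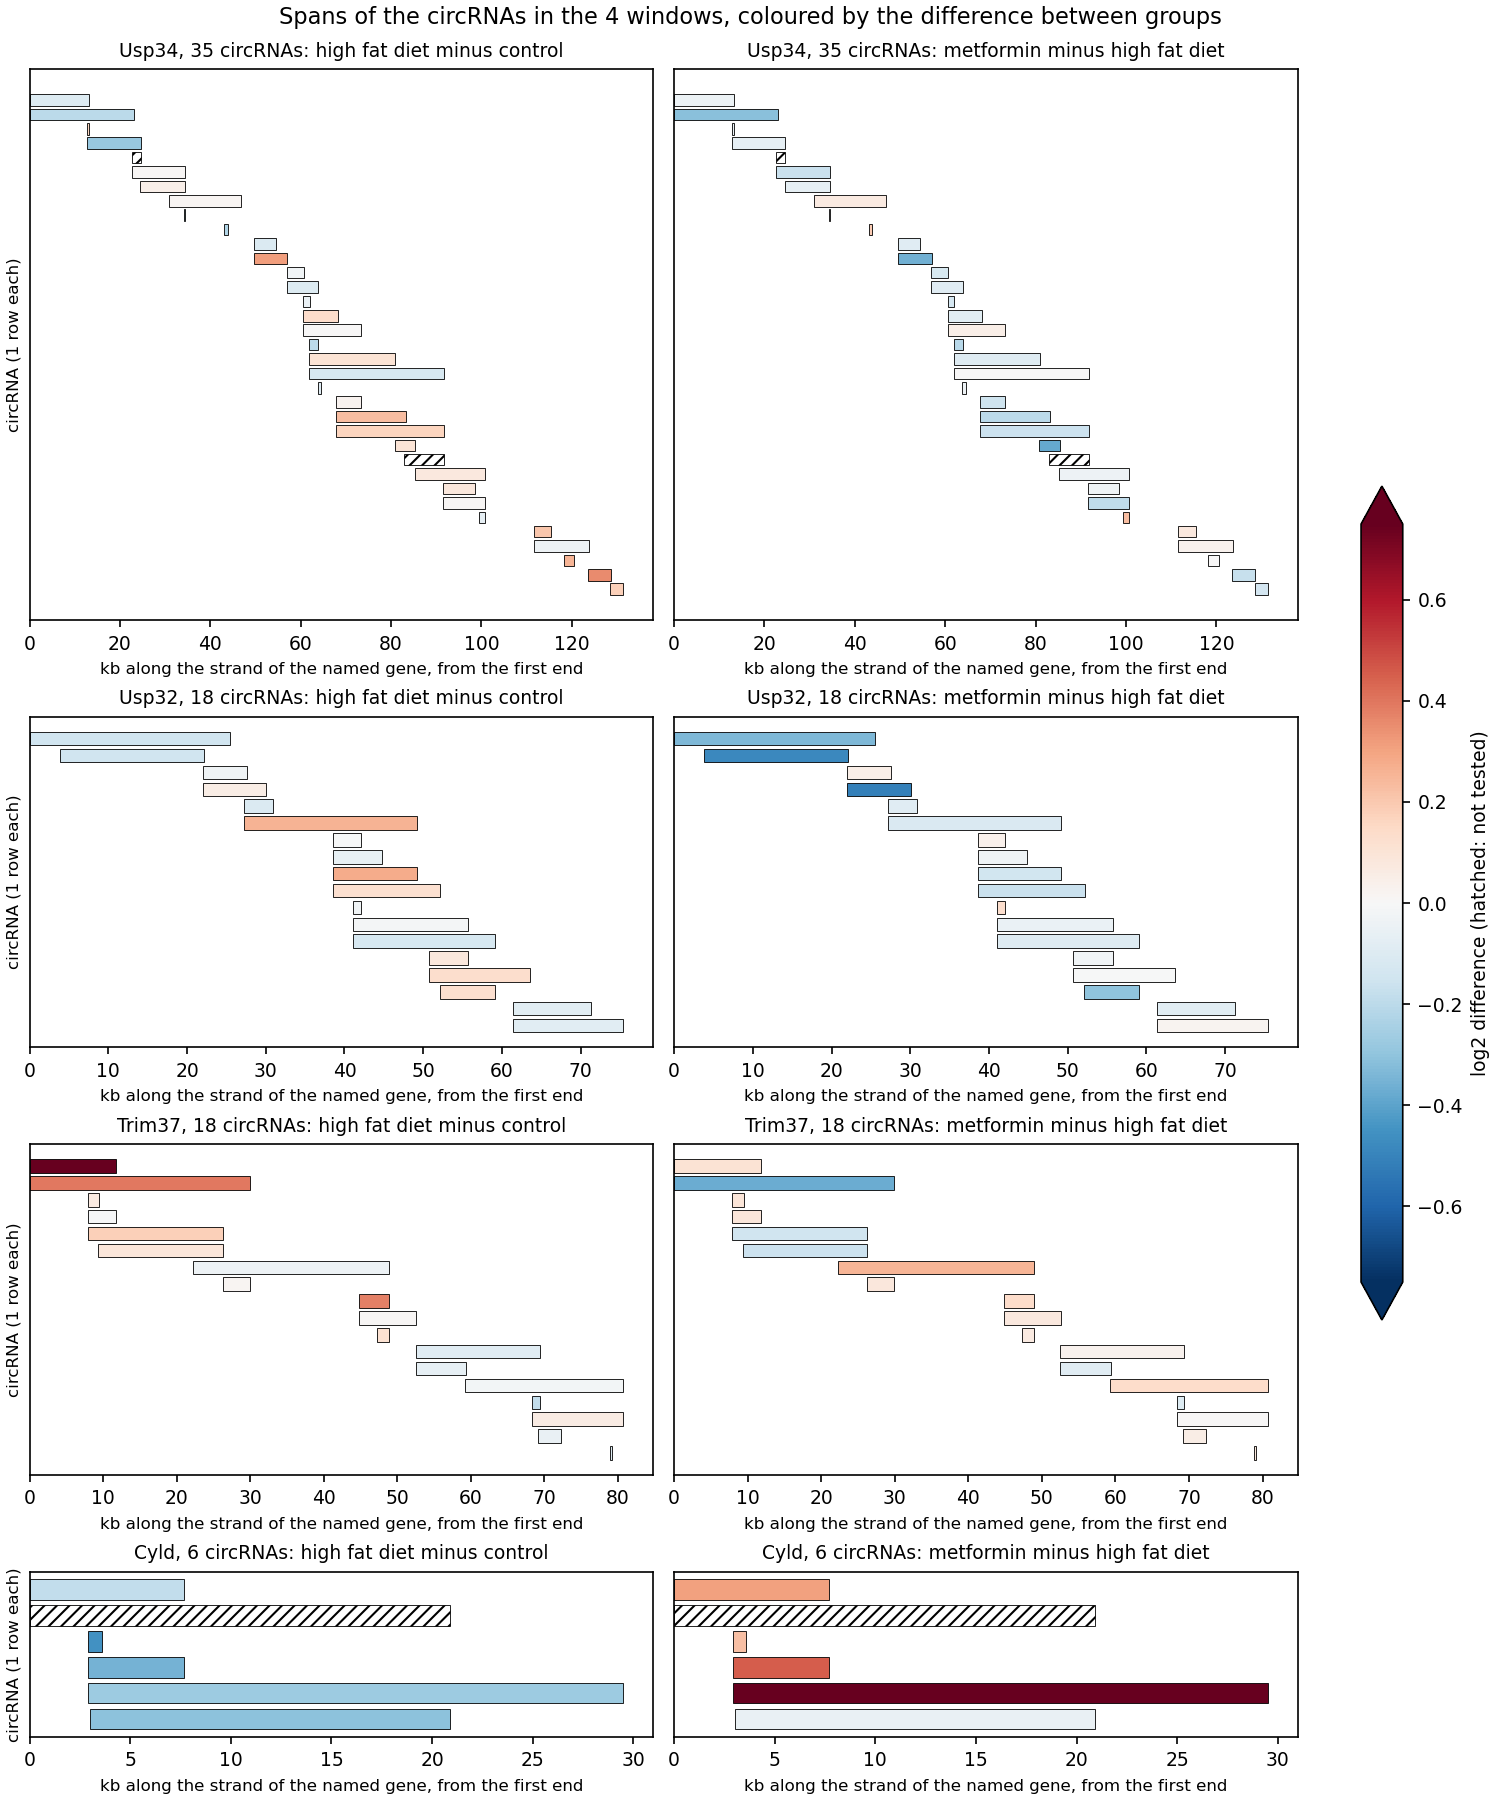
Each bar is a circRNA, drawn from end to end in kb along the strand of the gene the window is named after (Usp32 is turned round), and coloured by the log2 difference of high fat diet minus control (left) or metformin minus high fat diet (right). Hatched bars were not tested. The 5 tested Cyld circles are blue on the left, and 4 of them are red on the right.

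Signal reached the testing rule for 74 of the 77 circRNAs, those with 3 arrays of some group well above background. The 3 that did not were a Cyld circle (chr8:91226207-91247111) and the Usp34 circles chr11:23243320-23245217 and chr11:23303560-23312415. The other 74 comprised 5 in the Cyld window, 33 in the Usp34 window, 18 in the Usp32 window and 18 in the Trim37 window. No probe was saturated, and 7 values on 3 circRNAs were left out as scanner outliers. In limma fits over all circRNAs tested (n = 3 arrays per group), none of the 74 passed an adjusted p of 0.05 in any of the 4 comparisons. The smallest adjusted p was 0.595 for high fat diet minus control, 0.756 for metformin minus high fat diet, 0.855 for metformin minus control and 0.511 for both high fat groups minus control. Across the whole array the called share was likewise 0% of 25777 circRNAs for high fat diet minus control, 0% of 25828 for metformin minus high fat diet, 0% of 25763 for metformin minus control and 0% of 25761 for both high fat groups minus control. The log2 ratio of circRNA probe to partner gave no call among the 74 either. Over the whole array that ratio called 0 of 25706, 25768, 25678 and 25674 pairs in the 4 comparisons, in the same order.

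At an unadjusted p under 0.05, 1 of the 74 was higher and 2 were lower on the high fat diet than in control, against background shares of 2.07% higher and 5.18% lower over all circRNAs tested. With metformin against high fat diet, 3 were higher and 1 lower, against 2.32% and 1.58%. With metformin against control, 2 were higher and 2 lower, against 1.64% and 3.43%. With both high fat groups against control, 2 were higher and 2 lower, against 1.98% and 4.74%. The median log2 difference of the 74 was -0.01 for high fat diet minus control, against -0.06 over all circRNAs tested, and -0.05 for metformin minus high fat diet, against 0.03 over all. These shares and medians lay near the background of the array.

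**Figure D2:**
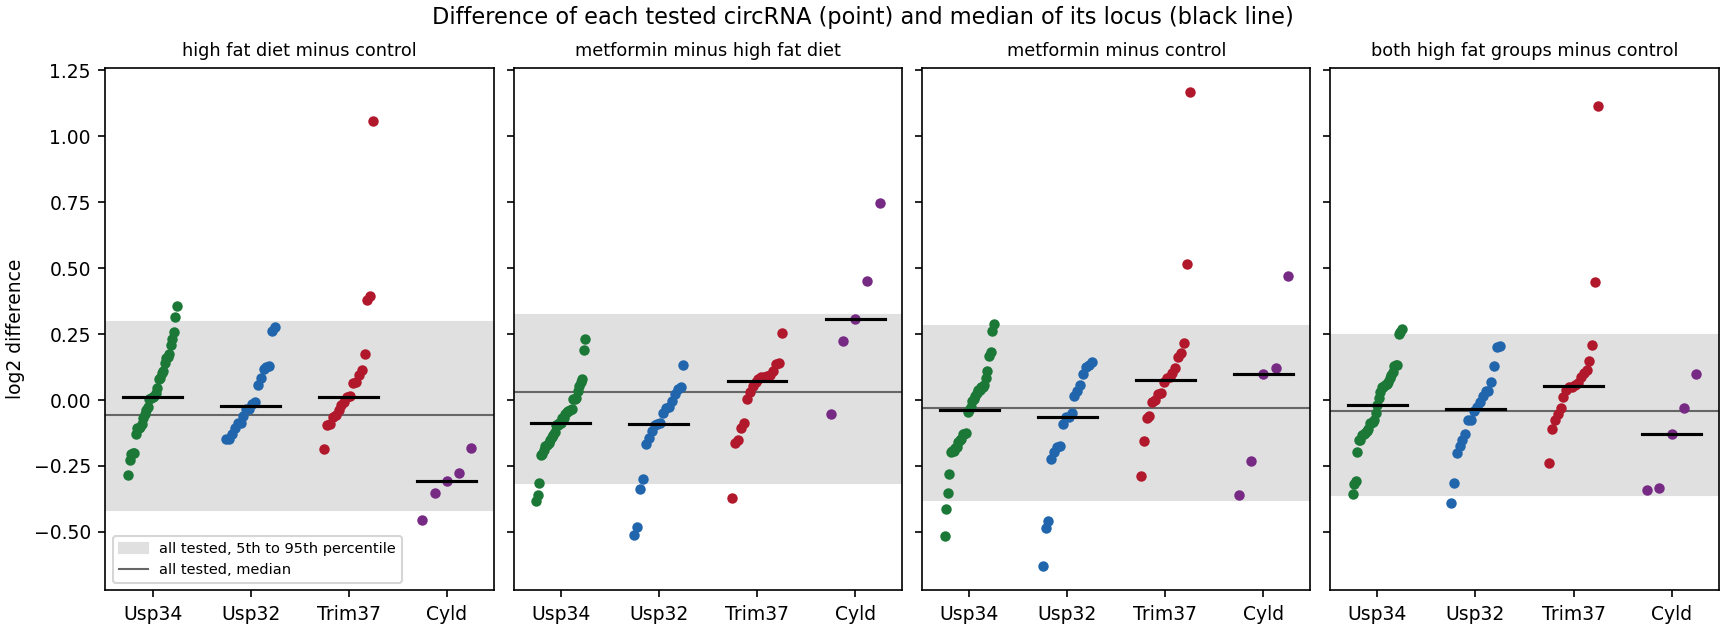
Each point is a tested circRNA, with the log2 difference on the vertical axis and the window on the horizontal axis, for each of the 4 comparisons. Black lines are window medians, the grey line is the median of all circRNAs tested and the grey band their 5th to 95th percentile. In high fat diet minus control the Cyld median is -0.31, and in metformin minus high fat diet it is 0.31.

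Of the 4 windows, the mean of the Cyld circles differed most for high fat diet minus control and for metformin minus high fat diet. Cyld codes for a deubiquitinase that trims ubiquitin chains, linear ones among them, from signalling proteins. The mean level of the 5 tested circles of the Cyld window was -2.34, -2.25 and -2.38 on metformin arrays, -2.69, -2.83 and -2.47 on high fat diet arrays and -2.32, -2.47 and -2.24 on control arrays. The metformin arrays lay above every high fat diet array, and high fat diet replicate 3 lay within the control range. The group means were -2.33 ± 0.07 with metformin, -2.66 ± 0.18 on the high fat diet and -2.35 ± 0.12 in control (SD, n = 3 arrays). The difference was -0.31 for high fat diet minus control and 0.34 for metformin minus high fat diet. Both differences use the same 3 high fat diet arrays and are not separate evidence of a change. Metformin minus control was 0.02, a mean over circles that went apart. Singly, 3 were higher and 2 lower, from -0.36 to 0.47.

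Taken singly, 5 of the 5 tested Cyld circles were lower on the high fat diet than in control (median -0.31), where 62.0% of all circRNAs tested were lower. With metformin against high fat diet 4 of the 5 were higher (median 0.31), where 56.4% of all were higher. Within the first array column, which held 1 high fat diet array and the 3 controls, the Cyld mean differed by -0.34, and within the second, with metformin and high fat diet arrays only, by 0.35. The partners of the same circles averaged -2.20 ± 0.11 with metformin, -2.35 ± 0.19 on the high fat diet and -2.08 ± 0.05 in control. The mean log2 ratio of circle to partner was -0.12 ± 0.04 with metformin, -0.31 ± 0.13 on the high fat diet and -0.26 ± 0.08 in control. For high fat diet minus control the partners differed by -0.27 and the ratio by -0.05, and for metformin minus high fat diet the partners differed by 0.15 and the ratio by 0.19.

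**Figure D3:**
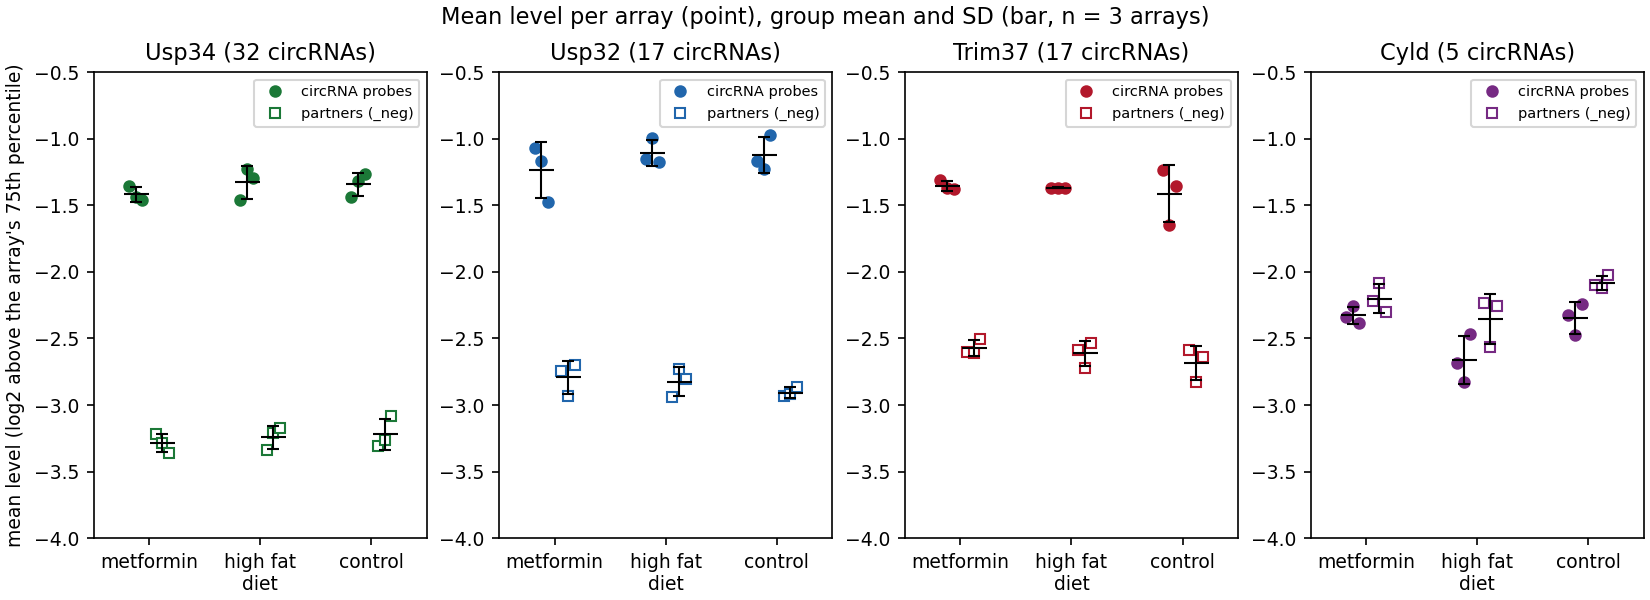
Points are arrays, with the mean level (log2 above the array's 75th percentile) of the circRNAs with a value on all 9 arrays (filled) and of their partners (open) on the vertical axis, by group. Bars are the group mean and SD (n = 3 arrays). The Cyld circles on high fat diet arrays average -2.66, below the metformin and control means.

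The shortest Cyld circle, chr8:91229125-91229778 (span 653 bases), had levels of -1.81, -1.95 and -2.17 on metformin arrays, -2.08, -2.55 and -1.98 on high fat diet arrays and -1.72, -1.78 and -1.74 on control arrays. Every high fat diet array lay below every control array. The difference of high fat diet minus control was -0.46 ± 0.17 on the log2 scale (SE, limma, adjusted p = 0.595). Its partner differed by -0.32, and the ratio by -0.13 ± 0.21. The circle was brighter than its partner on all 9 arrays. Without high fat diet replicate 2, the lowest array, the difference was -0.28.

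The circle chr8:91229125-91233895 (span 4770 bases) shares its start with the previous one. Its levels were 0.69, 0.99 and 0.90 on metformin arrays, 0.50, 0.14 and 0.58 on high fat diet arrays and 0.73, 0.62 and 0.94 on control arrays. Metformin and control arrays lay above all high fat diet arrays. Metformin minus high fat diet was 0.45 ± 0.16 (SE, limma, adjusted p = 0.969), a 1.37-fold difference, and high fat diet minus control was -0.35 ± 0.16 (SE, limma, adjusted p = 0.682). The partner differed by 0.06 for metformin minus high fat diet and by -0.28 for high fat diet minus control. Here the ratio to the partner was higher with metformin, by 0.39 ± 0.14 (SE, limma, adjusted p = 0.991). Without high fat diet replicate 2 and metformin replicate 3, the arrays with the fewest probes above background, metformin minus high fat diet in the level of this circle was 0.30 (chosen after seeing the data). With the authors' deposited values it was 5.42 ± 2.58 (SE, limma), a far less precise value.

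The longest Cyld circle, chr8:91229125-91255715 (span 26590 bases), starts at the same position. It stood at -4.14, -3.92 and -3.66 on metformin arrays, -4.59, -4.78 and -4.59 on high fat diet arrays and -4.36, -4.58 and -4.20 on control arrays. The metformin arrays lay above all others. The difference of metformin minus high fat diet was 0.75 ± 0.16 (SE, limma, unadjusted p = 5.82e-04, adjusted p = 0.756), or 1.68-fold. This probe was dim: it was well above background on 2 metformin arrays, 1 high fat diet array and 3 control arrays, and its partner was brighter on 8 of 9 arrays. The partner differed by -0.04 for metformin minus high fat diet. With normexp background correction the difference of the circle was 0.33 (quantile) or 0.42 (75th percentile). It was 2.30 ± 1.81 (SE, limma) with the authors' deposited values.

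The remaining tested Cyld circles went apart. The circle chr8:91226204-91233895 stood at -2.95, -2.99 and -2.99 on metformin arrays, -3.26, -3.40 and -3.20 on high fat diet arrays and -3.08, -3.14 and -3.08 on control arrays. Metformin minus high fat diet was 0.31 ± 0.12 (SE, limma, adjusted p = 0.969), and its partner differed by more, 0.58. For chr8:91229223-91247111 the difference of metformin minus high fat diet was -0.05 and that of metformin minus control -0.36. The untested circle, chr8:91226207-91247111, was well above background on 1 metformin array, 0 high fat diet arrays and 1 control array.

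**Figure D4:**
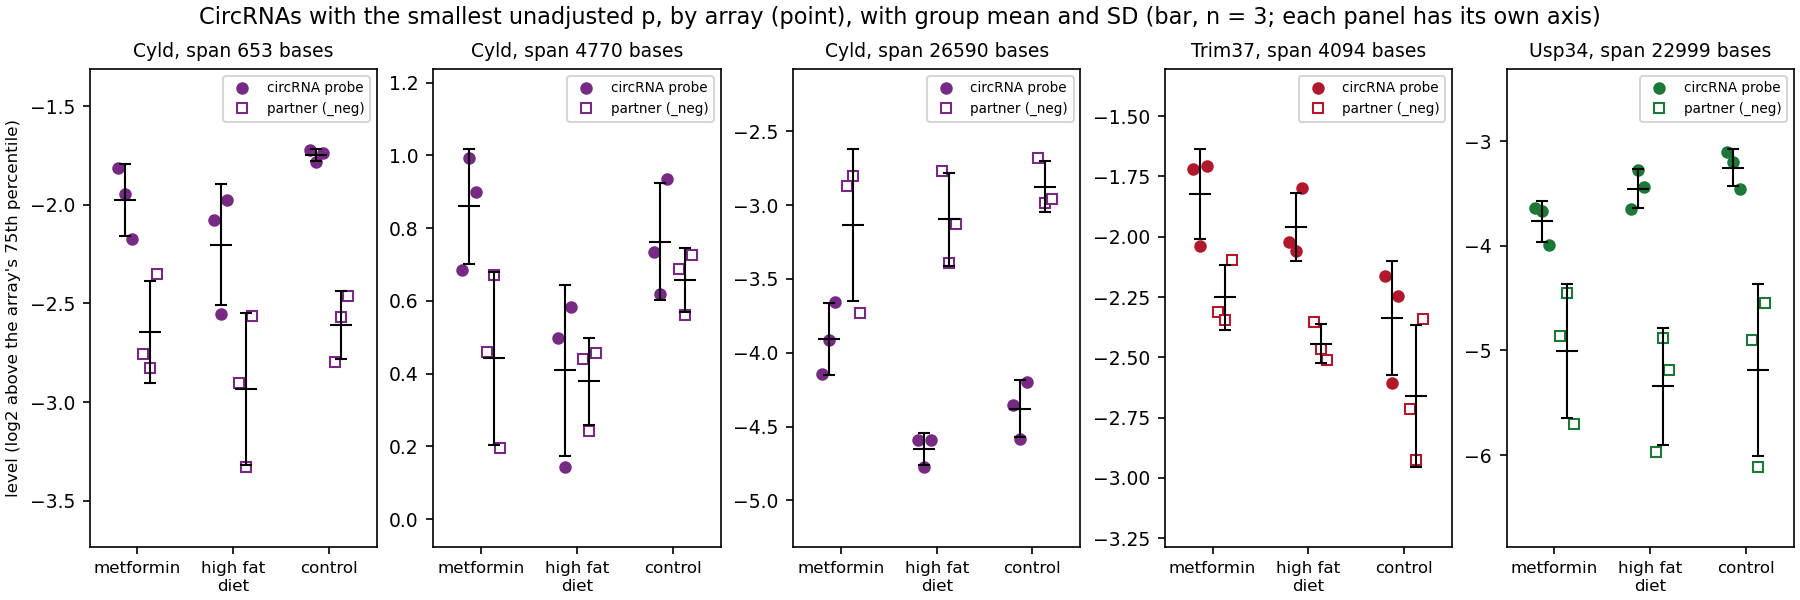
Points are arrays, with the level of the circRNA probe (filled) and its partner (open) in log2 units above the array's 75th percentile, by group; bars are the mean and SD (n = 3 arrays) and each panel has its own axis. The 5 circRNAs are those with the smallest unadjusted p. In the Cyld circle of 26590 bases the metformin arrays, at -4.14 to -3.66, lie above the others.

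The Usp34 circles were the most numerous, and their mean level differed by at most 0.09 between groups. Usp34 encodes a very large deubiquitinase, known from human cells to act on Axin in Wnt signalling. The mean of 32 circles with a value on all 9 arrays was -1.42 ± 0.06 with metformin, -1.33 ± 0.12 on the high fat diet and -1.34 ± 0.09 in control (SD, n = 3 arrays). The groups overlapped. High fat diet minus control was 0.01 and metformin minus high fat diet -0.09, with 24 of 33 circles lower in the second, where 43.6% of all circRNAs tested were lower. Fitted with the column of the array, high fat diet minus control was -0.12.

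The Usp34 circle with the smallest p was chr11:23220661-23243660 (span 22999 bases). Its levels were -3.64, -3.67 and -3.99 on metformin arrays, -3.65, -3.27 and -3.44 on high fat diet arrays and -3.10, -3.20 and -3.45 on control arrays. Metformin arrays lay below all control arrays and overlapped the high fat diet arrays. Metformin minus control was -0.51 ± 0.16 (SE, limma, adjusted p = 0.855), and both high fat groups minus control was -0.36 ± 0.14 (SE, limma, adjusted p = 0.644). With normexp background correction metformin minus control was -0.18 (quantile) or -0.15 (75th percentile), and both high fat groups minus control was -0.13 or -0.14. The partner did not reach the testing rule, so the ratio enters only the range over settings in the closing section. The circle's own probe was well above background on 2 of 3 metformin arrays.

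The probes with the highest signal in the Usp34 window stood differently beside their partners. The circle chr11:23263791-23264512 (span 721 bases) gave 6.69, 6.68 and 6.92 on metformin arrays, 6.70, 6.40 and 6.62 on high fat diet arrays and 6.72, 6.84 and 6.84 on control arrays. Its signal was above that of 99.9% of circRNA probes, but its partner was as bright, with a mean log2 ratio of -0.03 and the circle brighter on 3 of 9 arrays. The circle chr11:23332246-23336079 had a value on 6 arrays, 2.20 with metformin (1 array), 1.96, 2.15 and 2.24 on the high fat diet and 1.94 and 1.88 in control, and it was 45.3-fold brighter than its partner on average. The circle chr11:23338867-23341178 read 0.99, 1.06 and 1.03 on metformin arrays, 0.82, 1.09 and 1.16 on high fat diet arrays and 0.69, 0.71 and 0.90 on control arrays. Both high fat groups minus control was 0.26 ± 0.12 for it (SE, limma, adjusted p = 0.742). Its metformin arrays lay above all control arrays, while high fat diet replicate 1 lay within the control range.

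The groups also overlapped in the Usp32 circles. Usp32 encodes a membrane-associated deubiquitinase, described in human cells at the Golgi and endosomes. The mean of 17 circles was -1.07, -1.17 and -1.47 on metformin arrays, and -1.24 ± 0.21 with metformin, -1.11 ± 0.10 on the high fat diet and -1.12 ± 0.14 in control (SD, n = 3 arrays). Metformin minus high fat diet was -0.13, with 14 of 18 circles lower, where 43.6% of all circRNAs tested were lower. Without metformin replicate 3 it was -0.01. That array had the fewest probes well above background.

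Among the Usp32 probes of highest signal, chr11:84839021-84853672 (span 14651 bases) gave 1.33, 1.41 and 1.29 on metformin arrays, 1.44, 1.36 and 1.37 on high fat diet arrays and 1.33, 1.25 and 1.65 on control arrays. It was 4.58-fold brighter than its partner. The circle chr11:84852703-84853672 (span 969 bases), which ends at the same position, read 1.55, 1.20 and 1.28 on metformin arrays, 1.17, 1.13 and 1.33 on high fat diet arrays and 1.25, 1.07 and 1.41 on control arrays. For chr11:84845571-84867551 (span 21980 bases) the values were 1.22, 1.18 and 1.39 with metformin, 1.45, 1.14 and 1.56 on the high fat diet and 1.29, 0.95 and 1.12 in control, and its partner was as bright (mean log2 ratio -0.0021). In all 3 the groups overlapped, and the largest difference between groups was 0.26.

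Trim37, the ligase of the set, is mutated in mulibrey nanism in humans and is known for its part in centriole control. The mean of 17 circles of the Trim37 window was -1.35 ± 0.04 with metformin, -1.37 ± 0.0031 on the high fat diet and -1.41 ± 0.21 in control (SD, n = 3 arrays). The control arrays spread more widely than the others and covered both. High fat diet minus control was 0.04 and metformin minus high fat diet 0.01.

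The circle chr11:86995923-87000017 (span 4094 bases) had one of the 2 smallest p-values in 3 of the 4 comparisons. Its levels were -1.72, -2.04 and -1.71 on metformin arrays, -2.02, -2.06 and -1.80 on high fat diet arrays and -2.16, -2.60 and -2.24 on control arrays. All 6 arrays of the high fat groups lay above the 3 control arrays. Both high fat groups minus control was 0.45 ± 0.14 (SE, limma, adjusted p = 0.511), or 1.36-fold, metformin minus control was 0.52 ± 0.16 (SE, limma, adjusted p = 0.855) and high fat diet minus control was 0.38 ± 0.16 (SE, limma, adjusted p = 0.660). With the authors' deposited values the 3 differences were 1.29 ± 0.62, 1.34 ± 0.72 and 1.24 ± 0.72 (SE, limma). The range over all settings is given in the closing section. All 3 comparisons share the control arrays. Within the first array column high fat diet minus control was 0.32, and no column held both metformin and control arrays; with the column in the fit, metformin minus control was 0.37. The partner differed in the same direction, by 0.31 for both high fat groups minus control, and the ratio by 0.13 ± 0.14. Other circles have an end in common with it: chr11:86995923-87003661, which begins at the same position, differed by 0.05 for both high fat groups minus control, and chr11:86998386-87000017, which ends at the same position, by 0.15. The difference between these circles was not tested.

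The probes of highest signal in the Trim37 window differed by at most 0.14 between group means. The circle chr11:87029939-87030049, whose ends lie 110 bases apart, read 1.22, 1.19 and 0.95 on metformin arrays, 1.13, 0.99 and 0.97 on high fat diet arrays and 1.46, 0.88 and 1.04 on control arrays. The circle chr11:87010323-87031832 (span 21509 bases) averaged -0.0049 ± 0.0068 with metformin, -0.15 ± 0.03 on the high fat diet and -0.13 ± 0.12 in control (SD, n = 3). Its metformin arrays lay above all others, but metformin minus high fat diet was 0.14 ± 0.12 (SE, limma, adjusted p = 0.969). The circle chr11:87020266-87023389 read -0.23, -0.27 and -0.37 on metformin arrays, -0.26, -0.43 and -0.34 on high fat diet arrays and 0.11, -0.61 and -0.36 on control arrays, which spread widest, and its partner was brighter on all 9 arrays. The Trim37 circle chr11:86951092-86962865, named after its values were seen, had the largest difference from control, 1.06 for the high fat diet and 1.17 for metformin. That value rests on 1 control array at -3.88, against -2.97, -3.43 and -1.75 on metformin arrays and -3.46 and -2.19 on high fat diet arrays, where 2 of the 3 control values are missing.

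The circRNA probe was brighter than its partner by the mean over arrays for 63 of the 77 (81.8%), against 78.0% of all 30534, with 32 of 35 in the Usp34 window, 14 of 18 in the Usp32 window, 13 of 18 in the Trim37 window and 4 of 6 in the Cyld window. Of the 74 tested circRNAs, 53 had a partner that itself reached the testing rule, so that many ratios are taken against a probe near background. No test of a difference between windows was run.

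**Figure D5:**
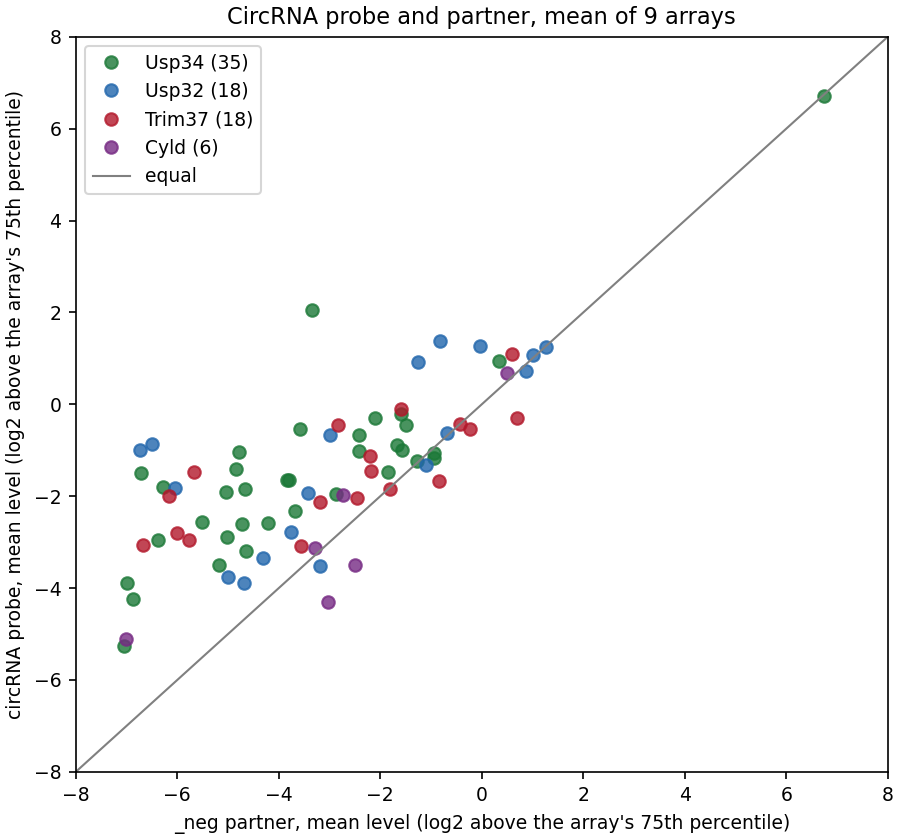
Each point is 1 of the 77 circRNAs, with the mean level of its partner on the horizontal axis and of its own probe on the vertical axis (log2 above the array's 75th percentile, mean of the arrays with a value), coloured by window; the line marks equality. Of the 77, 63 lie above the line, and 4 of the 6 Cyld circles do.

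The circRNAs outside the windows whose levels went most closely with each window mean over the 9 arrays were picked from 24475 and are given as a description. For Cyld they were chr15:36010572-36013496 (Pearson r = 0.97) and chr17:46312100-46321758 (r = 0.95). For Usp34 they were chr9:14609800-14633859 (r = 0.98) and mmu_circ_0005239 (r = 0.96), for Usp32 mmu_circ_0005514 (r = 0.97) and mmu_circ_0007915 (r = 0.96), and for Trim37 mmu_circ_0009401 (r = 0.96) and Fan_16_148_1895 (r = 0.93). All points share the same 9 arrays, and the best of so many is high by selection.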

How the data were processed

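Liver circRNAs were read on 9 one-colour Agilent arrays, 3 per group. Per the file headers, the authors deposited spot intensity values extracted with Agilent Feature Extraction 11.5.1.1 on an mm9 grid (version 10.7 per the submitters' processing notes); the processed intensity is background-subtracted and not scaled between arrays. The authors' deposited log2 table of circRNAs had a median of 6.51 on every array and a floor; its scale and centring are unstated, its direction was taken as that of the signal, and it served only as an alternative, in which 109 of 693 values of the 77 circRNAs stood at the floor.

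Spots with outlier flags were left out, spots of a probe averaged, log2 taken and each array's 75th percentile subtracted. CircRNAs well above background on all 3 arrays of a group (25864, 84.7%) entered 1 fit of the 3 groups (lmFit and eBayes of limma 3.58.1, R 4.3.3), with Benjamini-Hochberg adjustment over all of them and a threshold of 0.05. Window means are over tested circRNAs with a value on all 9 arrays and have no p. The number of arrays limits the precision, and p-values measure the spread between pools. The fit was tested on simulated data. The named circRNAs were the 3 of highest signal in each window and, in each comparison, the 2 of the smallest p; circles named beyond this rule were chosen after their values were seen. The members, windows and lists were chosen with earlier results of these data known. Normexp, an alternative, used the median intensity and its local background; the mean intensity was not used here. Host gene and cell type lists were not analysed here, because probes are not paired with genes; the liver label was therefore not checked against markers.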

Additional observations from a re-analysis of the deposited data

How the results depend on the processing

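None of the tested circRNAs of the 4 windows was called under any setting (23 or 24 per comparison, and 12 for the ratio to the partner). Over all circRNAs, calls numbered 0 here but up to 19 for high fat diet minus control (normexp and 75th percentile), and 14 for metformin minus high fat diet, 23 for metformin minus control and 22 for both high fat groups minus control with the authors' deposited values. The differences of the circRNAs of smallest p kept their sign in all 21 to 23 settings run, but not their size. These circRNAs were picked by p from the same arrays that the settings reuse, so a kept sign is no separate evidence. For metformin minus high fat diet the ranges were 0.33 to 2.30 and 0.30 to 5.42 for the Cyld circles of 26590 and 4770 bases. For high fat diet minus control the range was -0.61 to -0.13 for the Cyld circle of 653 bases. For metformin minus control the ranges were -0.69 to -0.15 for the Usp34 circle and 0.11 to 1.34 for the Trim37 circle. The settings included the ratio to the partner, which set the ends -0.13, -0.69 and 0.11. The authors' values set the ends 2.30, 5.42, -0.61 and 1.34. With the authors' values, the window means in the order high fat diet minus control, metformin minus high fat diet, metformin minus control, both high fat groups minus control were 0.50, -0.32, 0.18 and 0.34 (Usp34), -0.28, -0.29, -0.57 and -0.43 (Usp32) and -1.20, 0.97, -0.24 and -0.72 (Cyld). Trim37 gave -0.14, -0.09, -0.23 and -0.18 in the same order, each opposite in sign to the main value. With the array column as a covariate Usp34 gave -0.12 for high fat diet, -0.25 for metformin and -0.18 for both minus control, and -0.12 for high fat diet minus control within the first column. As ratio to the partner Cyld gave -0.046 for high fat diet minus control, 0.19 for metformin minus high fat diet and 0.047 for both minus control. As medians over circles, Cyld gave -0.17 for high fat diet minus control and Trim37 0.26 for metformin minus high fat diet and 0.22 for metformin minus control. The 1 tested Cyld circle brighter than its partner on all arrays gave -0.46 for high fat diet, -0.23 for metformin and -0.34 for both minus control. Without high fat diet replicate 2 and metformin replicate 3 (chosen after seeing the data) Usp32 gave 0.044 for metformin minus high fat diet. The causes were not tested. Leaving out 1 array at a time gave -0.41 to -0.23 for Cyld on high fat diet minus control and 0.25 to 0.43 on metformin minus high fat diet. Keeping outlier spots in the percentile was also added after seeing the data. The slide as a block was not run separately, since the second slide held 1 array. Replicate numbers did not pair the samples (correlations of same-numbered deviations -0.14 to 0.19). With the replicate block 0 of the 74 tested circRNAs were called in each comparison (smallest adjusted p 0.108, limma). That setting called 4 circRNAs over the whole array for high fat diet minus control and 0 for metformin minus high fat diet.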

Other observations

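Probe signal was ordered along the Trim37 window. From the 5′ to the 3′ side of the gene's strand, the rank correlation of mean level with the circle's midpoint was 0.92 over 18 circles (0.88 to 0.93 on single arrays), with medians of -2.14 over the 9 circles on the 5′ side and -0.44 over the 9 on the 3′ side. The partners showed the same order (0.84), and the ratio of circle to partner ran the other way (-0.49). In the other windows the correlation was 0.35 over 35 circles (Usp34), 0.40 over 18 (Usp32) and -0.66 over 6 (Cyld). Neighbouring circles overlap and share ends, probes of different sequence differ in brightness, and this is a description of probe signal and not of amounts. In RefSeq (GRCm38.p6), Ppm1e overlaps Trim37, Ahsa2 overlaps Usp34 and 1700125H20Rik overlaps Usp32; the part of these genes in the signal was not tested.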
